A study of Glycine max with 36 samples.

Results

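The step from subjective morning (ZT4) to subjective midday (ZT8) was examined in the unifoliolate leaves (the first true leaves, which are undivided) of soybean (Glycine max, cultivar Williams 82). It covers 12 of the 36 libraries in the series, namely the libraries of ZT4, ZT8, ZT28 and ZT32, with 3 libraries at each time, where ZT is zeitgeber time in h. They were chosen by the time in their titles, and the step was measured once on each of 2 days, as ZT4 to ZT8 and again, in other plants, as ZT28 to ZT32. All seedlings were raised for 9 days at 28 °C with 16 h of light and 8 h of dark per day, were put in constant conditions on day 10 and were sampled from day 11. The groups therefore share cultivar, rearing and the absence of a light-dark cycle, and differ in the hour of harvest. Each library came from the leaves of 3 pooled seedlings, so a replicate averages 3 plants and plants were never followed over time. The labels give an age of 11 days for every sample, although sampling began on day 11 and ran over 44 h. By that schedule the second day's plants were older than the first day's and had spent longer in constant conditions. Age and time in constant conditions cannot be told apart. The transcripts were measured by RNA-seq, and levels are FPKM, in which fragments are scaled by gene length and by the library's total.

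The plant circadian clock is a network of transcription factors that repress each other in turn over the day. In Arabidopsis thaliana, MYB-type factors expressed at dawn repress genes of the evening, a series of pseudo-response regulators follows through the morning and afternoon and represses the dawn factors, and an evening complex acts towards night. Through this network the leaf times photosynthesis, starch use, growth and flowering, and the interval between morning and midday is one in which dawn transcripts decline and afternoon transcripts build up. In constant conditions the daily change of light is absent. ZT4 and ZT8 both fall within the 16 h of light of the earlier cycle. No change from dark to light would thus lie between them in that cycle either.

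Of 47011 identifiers in the table, 27449 had a mean of 1 FPKM or more over the 36 libraries and were tested. None of the identifiers (0) was found among the 59048 genes of the RefSeq table (assembly Glycine_max_v4.0), so no gene name, role or sequence is given, the lists of clock, photosynthesis and other genes could not be resolved, and the leaf label could not be checked against marker genes. At most 2 identifiers per direction and comparison are printed. The sequencing depth in reads is unknown. Low FPKM values lay on steps of 1 read (95.4% of 91293 low values, within 0.06 of a step), and these steps put the 12 libraries at 0.908 to 1.098 of the depth of the median library. Pearson's r between replicates, across genes on the log2 scale, ran from 0.979 to 0.9919 over the 12 pairs. The lowest value belonged to ZT28 replicates 1 and 3. At each time replicates 1 and 2 were the closest pair (0.991 at ZT4, 0.9907 at ZT8, 0.9906 at ZT28 and 0.9919 at ZT32).

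The balance between abundant and other transcripts shifted over the 4 h. The level of the median tested gene was 2.55 ± 0.0042 at ZT4 and 2.71 ± 0.025 at ZT8, and 2.61 ± 0.0069 at ZT28 and 2.77 ± 0.0099 at ZT32 (log2(FPKM + 1), mean ± SD, n = 3). On both days all 3 later libraries lay above all 3 earlier ones. The mean rise over the days was 0.163 (exact two-sided permutation test within days, p = 0.005, the smallest that the 400 arrangements allow). Over the same step the 20 genes with the highest mean in the series went from 19.0% ± 0.23 to 16.0% ± 0.88 of the summed FPKM on the first day and from 17.0% ± 0.90 to 15.2% ± 0.44 on the second (difference -2.4 percentage points, exact permutation p = 0.005). FPKM are shares of a library, so the levels of abundant transcripts and of all others are tied to each other. The results are therefore also given relative to the median gene, that is after median-ratio rescaling of the libraries, which sets the typical gene to the same level in each. In whole leaves, fewer cells of a type and less RNA per cell cannot be told apart.

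On the deposited scale a majority of the tested genes changed between ZT4 and ZT8, but few changed by much. With both days in one fit, 15345 of 27449 genes (55.9%) passed an adjusted p of 0.05, of which 12294 (44.8% of those tested) rose and 3051 (11.1%) fell. The median gene moved by 0.15 on the log2 scale, and relative to it 10998 genes (40.1%) passed, with 5436 rises (19.8%) and 5562 falls (20.3%), so the share of rises among the calls went from 80.1% to 49.4%. All 5436 of those rises were also rises as deposited, and all 3051 falls as deposited were also falls relative to the median gene, with 0 genes called in opposite directions. The 3 later libraries lay above the 3 earlier ones on each day for 7377 genes (26.9%) and below them on each day for 1928 (7.02%). The test was limma's moderated test on log2(FPKM + 1) with the day as covariate and Benjamini-Hochberg adjustment over all 27449 genes, and fold changes on this scale understate those of low genes.

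The typical change was modest. The median fold of the called rises was 1.25 (quartiles 1.17 and 1.38) and that of the called falls 1.32 (1.20 and 1.54). A change of 2-fold or more was called for 416 rises and 254 falls, together 2.44% of the genes tested, a change of 4-fold or more for 56 rises and 23 falls, and one of 8-fold or more for 8 rises and 7 falls. With a pseudocount of 0.1 in place of 1 the 2-fold count was 1205 instead of 670. After rescaling to the median gene the 2-fold limit gave 275 rises and 426 falls (2.55%), so the larger group at this limit depended on the scale. The 275 and 254 genes called in their direction on both scales make up the part of the 2-fold changes that did not. At the other end, the 95% interval of the step lay within 1.25-fold of no change for 10531 genes (38.4%) as deposited and for 13201 genes (48.1%) relative to the median gene. Of these, 2051 and 1286 were still called as changed, which is to say that small steps were resolved as well.

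The share of genes called in each direction is given here by abundance. Of the 18042 genes with a mean of 1 to 10 FPKM, 43.8% rose and 7.75% fell. Of the 8612 genes at 10 to 100 FPKM, 48.7% rose and 15.8% fell. The 795 genes at 100 FPKM or more stood apart, with 188 rises (23.6%) and 294 falls (37.0%), and their median change was -0.043 on the log2 scale against 0.155 in both other classes. On the rescaled values 12.1% of the most abundant class rose and 55.7% fell. The class at 10 to 100 FPKM had 22.4% rises and 27.8% falls, and that at 1 to 10 FPKM had 18.9% and 15.1%. Falls thus outnumbered rises at 100 FPKM or more on both scales, and at 10 to 100 FPKM on the rescaled values alone. The difference between the classes was not tested.

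The 2 largest rises among genes of at least 10 FPKM, called on each day, had their highest means of each day at midday. GLYMA03G06420 was at 14.6, 4.99 and 1.53 FPKM in the 3 libraries of ZT4 and at 73.4, 186.6 and 108.7 in those of ZT8. On the second day it was at 1.82, 1.58 and 1.92 FPKM at ZT28 and at 57.2, 65.0 and 42.2 at ZT32. The groups did not overlap on either day, and the widest ratio between replicates was at ZT4, where replicate 1 was the highest. The step was 4.27 ± 0.35 (log2, SE, limma adjusted p = 1.1e-06), or 17.5-fold and 30.9-fold between the mean FPKM of the first and of the second day. Its level at ZT12 was back at 9.28 ± 2.18 FPKM and at ZT36 at 7.10 ± 3.33 (SD, n = 3).

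GLYMA18G43650 followed the same course. It was at 41.2, 11.0 and 1.45 FPKM at ZT4 and at 86.0, 170.8 and 95.5 at ZT8, and then at 0.441, 0.269 and 0.721 at ZT28 and at 39.3, 51.0 and 59.7 at ZT32. The library of ZT4 replicate 1 was again the highest of its group, and the order of the 3 libraries of ZT4 was that of GLYMA03G06420. The step was 4.25 ± 0.55 (log2, SE, limma adjusted p = 4.38e-05), and the ratio of mean FPKM was 6.56 on the first day and 105.0 on the second. The mean at ZT28 was 0.477 ± 0.228 FPKM (SD, n = 3), a spread that makes the second ratio imprecise. Without ZT4 replicate 1 the step was 4.78, and without ZT4 replicate 3 it was 3.87.

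The 2 largest falls by the same rule, at least 10 FPKM and called on each day, had their lowest means of each day at midday. GLYMA08G41640 was at 8.13, 21.9 and 38.4 FPKM at ZT4 and at 5.53, 0.638 and 1.21 at ZT8, and then at 58.6, 214.0 and 119.2 at ZT28 and at 8.28, 6.89 and 15.9 at ZT32. Every later library was below every earlier one of its day, by the least for ZT4 replicate 1 and ZT8 replicate 1. The step was -3.12 ± 0.43 (log2, SE, limma adjusted p = 7.64e-05), a 9.27-fold and a 12.6-fold lower mean. The level had been 327 ± 162 FPKM at ZT0 and 211 ± 7.16 at ZT24, so most of the decline in mean FPKM lay before ZT4 on the first day and after ZT28 on the second.

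GLYMA18G14490 was at 9.18, 16.6 and 66.2 FPKM at ZT4 and at 5.32, 2.05 and 4.60 at ZT8. On the second day it was at 95.1, 258.8 and 188.9 FPKM at ZT28 and at 9.07, 6.89 and 17.7 at ZT32. The libraries kept the order they had for GLYMA08G41640 at ZT4 and at ZT28. The step was -3.07 ± 0.47 (log2, SE, limma adjusted p = 0.000159), a 7.68-fold lower mean on the first day and a 16.1-fold lower mean on the second. Relative to the median gene the steps of these 4 identifiers were 4.14, 4.14, -3.31 and -3.26.

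**Figure D1:**
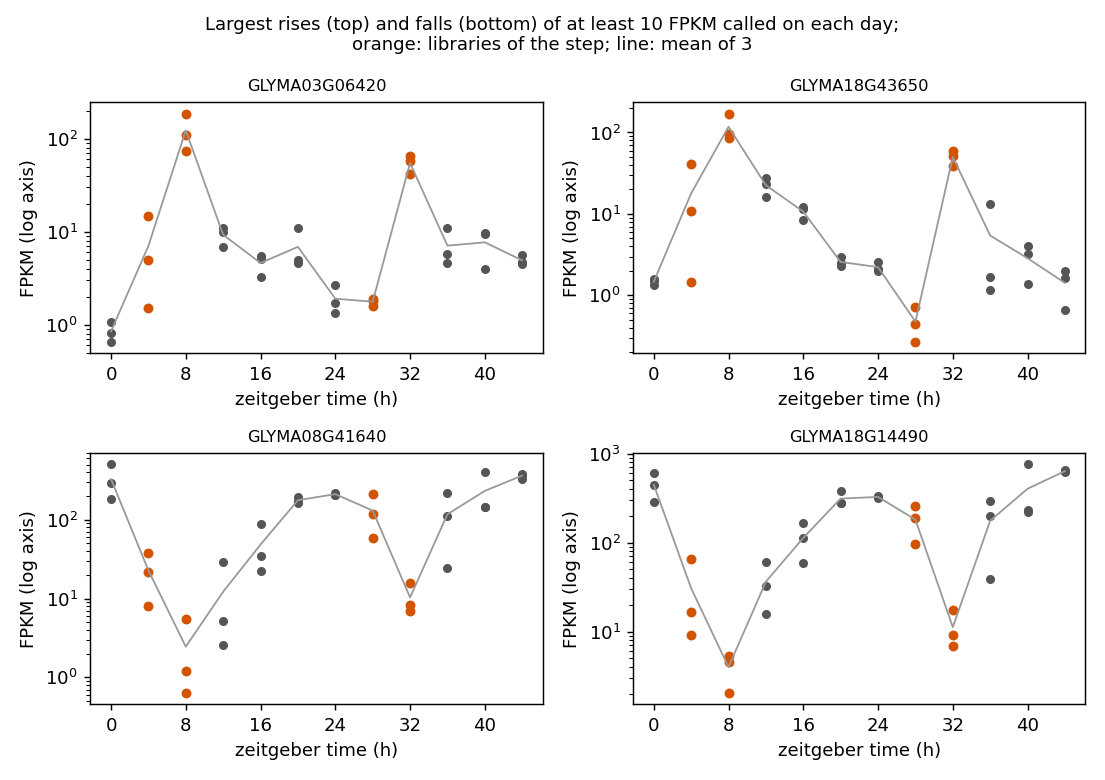
FPKM (log axis) of the 2 largest rises (top) and the 2 largest falls (bottom) of the step among genes of at least 10 FPKM called on each day, against zeitgeber time in h. Points are the 36 libraries, orange for the 12 of the step, and the line joins the means of 3. Both rising identifiers peak at ZT8 and ZT32 and are below those levels at ZT12 and ZT36, and both falling ones have the lowest mean of each day there.

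Within the same rule 2001 rises and 905 falls qualified, and the 10 largest of each are described here. Over all called genes the largest fall had a size of 4 on the log2 scale, so the rule left out larger falls. The 10 largest rises ran from 2.91 to 4.27 on the log2 scale, with means of 0.246 to 82.0 FPKM at ZT4 and 14.0 to 1120 at ZT8, and 0.477 to 170 at ZT28 and 16.5 to 887 at ZT32. The 10 largest falls ran from -3.12 to -2.06 in change, from 8.31 to 211 FPKM at ZT4 down to 0.55 to 22.0 at ZT8, and from 12.6 to 268 at ZT28 down to 2.88 to 76.0 at ZT32. Switches from near absence were few: 2 genes had a mean under 1 FPKM at both ZT4 and ZT28 and of 5 FPKM or more at both ZT8 and ZT32, and 1 gene did the reverse.

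Whether the step repeats was asked by fitting each day alone, since the days share neither plants nor libraries. On the first day 11812 genes (43%) were called, 9094 rises (33.1%) and 2718 falls (9.9%), and on the second day 7526 (27.4%), 5780 rises (21.1%) and 1746 falls (6.36%). Both days called 4343 genes as rises, which is 47.8% of the first day's list and 75.1% of the second's, and 1405 as falls, which is 51.7% and 80.5%. Another 16 genes were called on both days with opposite signs, 6 as rises and 10 as falls on the first day. The 5748 genes called in the same direction on both days were 20.9% of those tested, and 3703 (13.5%) relative to the median gene. The second day's count depended on single libraries. It was 4947 without ZT28 replicate 1, 3694 without ZT28 replicate 2, 3139 without ZT32 replicate 1 and 4006 without ZT32 replicate 2. The count for both days was 3114, 2734 and 3277 without the last 3 of these. Without replicate 3 of ZT28 or of ZT32 the second day gave 7659 or 6644 calls, and both days 5818 or 5530.

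Large steps on one day were nearly always steps in the same direction on the other. Of the 563 genes that rose 2-fold or more on the first day, 559 (99.3%) had a positive change on the second day, against 74.7% of all genes tested, and 518 (92.0%) were called as rises there, against a background of 21.1%. Of the 392 that fell 2-fold or more, 386 (98.5%) had a negative change on the second day, against 25.3% of all genes, and 360 (91.8%) were called as falls, against 6.36%. Relative to the median gene, where 51.2% of all genes had a positive second-day change, 376 of 379 rises and 615 of 622 falls kept their direction. In the other order, 350 of the 356 rises and 188 of the 195 falls of 2-fold or more on the second day had the same sign on the first. Of all genes tested, 71.2% had a positive and 28.8% a negative change on the first day. Over all 27449 genes the 2 steps had a Pearson's r of 0.777 and a Spearman's rho of 0.724 across genes, which are not independent replicates and which share the libraries of each day.

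**Figure D2:**
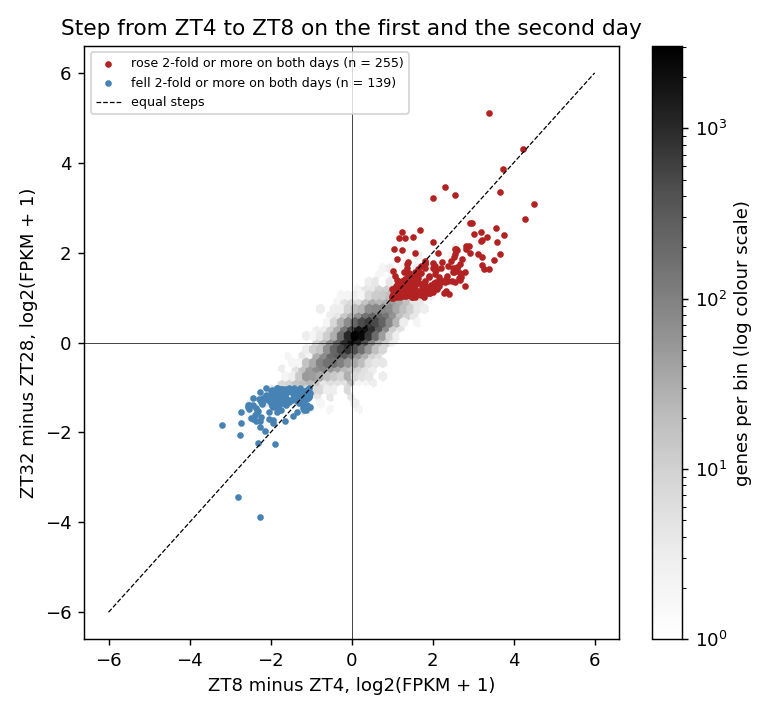
Step of each tested gene on the first day (ZT8 minus ZT4, horizontal) and on the second day (ZT32 minus ZT28, vertical), both as differences of mean log2(FPKM + 1), with grey bins shaded by the number of genes on a log colour scale. The 255 genes in red rose and the 139 in blue fell by 2-fold or more on both days, and 200 of the red and 114 of the blue genes lie on the side of the dashed line of equal steps where the first day's step is larger.

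The size of the step was smaller on the second day for most of the strongly changing genes. Among the 416 rises of 2-fold or more in the fit of both days, the median step was 1.43 on the first and 1.17 on the second day (log2), and the median ratio of the second to the first was 0.775 (quartiles 0.642 and 0.989), with 320 genes (76.9%) smaller on the second day. Among the 254 falls the median step was -1.45 and then -1.12, the median ratio 0.721 (0.605 and 0.922), and 201 genes (79.1%) had the smaller step on the second day. The ratios after rescaling were 0.739 and 0.743. These genes were chosen on both days together, so the choice does not favour a day. The medians describe the sets and carry no test.

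A step of 2-fold or more, called on each day in the same direction, was found for 255 rises and 139 falls, and for 174 and 248 relative to the median gene. With a pseudocount of 0.1 the numbers were 433 and 240. All 174 rescaled rises were among the 255, and all 139 falls were among the 248. The 255 rising genes together held 0.675%, 0.618% and 0.647% of the summed FPKM in the libraries of ZT4 and 2.60%, 2.92% and 2.49% in those of ZT8, and 0.752%, 0.727% and 0.676% at ZT28 against 2.28%, 2.27% and 2.07% at ZT32. The 139 falling genes held 3.64%, 3.78% and 3.33% at ZT4 and 0.906%, 0.818% and 0.930% at ZT8, and 4.08%, 3.98% and 3.71% at ZT28 against 1.45%, 1.60% and 2.06% at ZT32. On each day the rising genes took a smaller share than the falling genes before the step and a larger one after it. These shares are a description, because the same libraries chose the genes. By abundance, 20 of the 255 rises and 15 of the 139 falls had a mean of 100 FPKM or more, against 795 of the 27449 genes tested. Fold changes on log2(FPKM + 1) understate those of low genes, so the 2-fold limit itself favours abundant genes in this comparison.

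The time points on either side, in 12 libraries that the step did not use, showed where these genes stand in the daily course. Between ZT0 and ZT12 (with ZT24 and ZT36), 253 of the 255 rising genes (99.2%) were called higher at ZT12 and 0 lower, against backgrounds of 67.4% and 15.3% of the 27449 genes. Their median difference was 3.22 on the log2 scale (quartiles 2.20 and 4.16), against 0.402 for all tested genes. All 139 falling genes were called lower at ZT12, with a median difference of -3.00 (quartiles -4.00 and -2.37). Relative to the median gene, where 32.2% of all genes were higher and 32.4% lower, 170 of 174 rises were higher and 248 of 248 falls lower. The test was the same limma fit with day as covariate, in which 82.7% of all genes were called. Over all tested genes, 13054 were called in the same direction on both scales and 1414 in opposite directions.

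The rest of the day placed the extremes at opposite ends. Among the other 4 times of day, ZT0, ZT12, ZT16 and ZT20 with both days averaged, the rising genes were highest at ZT12 in 243 of 255 cases (95.3%) and at ZT16 in the other 12, against 37.8% and 39.6% of all tested genes. They were lowest at ZT0 in 217 cases (85.1%) and at ZT20 in 38 (14.9%), against 67.0% and 11.4% of all tested genes. The falling genes were lowest at ZT12 in 138 of 139 cases, against 18.0% of all tested genes. They were highest at ZT0 in 72 cases (51.8%) and at ZT20 in 63 (45.3%), against 9.42% and 13.1% of all tested genes. The remaining 4 were highest at ZT16, against 39.6% of all tested genes. Among these 4 times the falling genes were thus mostly highest at ZT20 and ZT0, and the rising genes at ZT12. ZT4 and ZT8 were not among the times compared, so a peak at either could not show. These placements are on the deposited scale and were not repeated after rescaling. On it the median tested gene was itself lower at ZT0 (2.547, 2.585 and 2.528) than at ZT12 (3.039, 2.953 and 2.991, log2(FPKM + 1)). The shares of all tested genes include this shift.

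**Figure D3:**
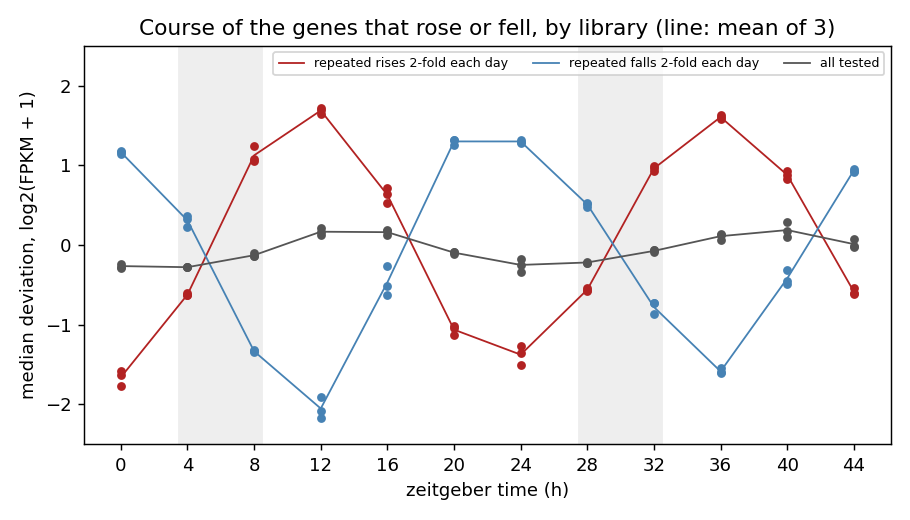
Median over genes of log2(FPKM + 1) minus each gene's mean over the 24 libraries outside the step, against zeitgeber time in h, for the 255 repeated rises (red), the 139 repeated falls (blue) and all 27449 tested genes (grey). Points are libraries, lines join the means of 3, and the grey bands mark the step on each day. The rising genes pass from -0.621 at ZT4 to 1.13 at ZT8 and on to 1.69 at ZT12, and the falling genes from 0.309 to -1.33 and on to -2.05.

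The rising genes' median deviation from their own mean outside the step was -1.66 ± 0.097 at ZT0, -0.62 ± 0.018 at ZT4, 1.13 ± 0.10 at ZT8 and 1.69 ± 0.040 at ZT12 (log2, SD over 3 libraries), and -1.38 ± 0.12, -0.56 ± 0.021, 0.96 ± 0.035 and 1.61 ± 0.022 at the same times on the second day. The mean FPKM at ZT12 was above that at ZT8 on both days for 179 of the 255 genes (70.2%) and below it on both days for 33 (12.9%), shares close to the 71.1% and 15.4% of all tested genes. In 9 of the 33, as in the 2 printed rises, it was at most 0.5 times the ZT8 level on both days. Of all 27449 tested genes, 4217 were below the ZT8 level on both days and 621 were at most 0.5 times that level. The falling genes passed from 1.17 ± 0.021 at ZT0 through 0.31 ± 0.072 at ZT4 and -1.33 ± 0.010 at ZT8 to -2.05 ± 0.14 at ZT12. Of the 139, 98 (70.5%) were lower still at ZT12 on both days and 24 (17.3%) had turned upward by then on both days, as had the 2 printed falls, against the same 15.4% and 71.1% of all tested genes. These counts are on the deposited scale and were not repeated after rescaling. On that scale the median deviation of all tested genes itself rose, from -0.127 at ZT8 to 0.168 at ZT12. On the second day it rose from -0.0729 at ZT32 to 0.112 at ZT36, so the shares of all tested genes include this shift. These shapes are a description, since ZT8 also chose the genes.

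The step itself differed between the days for 129 genes, 0.47% of those tested (limma's test of the difference of the steps, adjusted p under 0.05), and for 135 (0.492%) relative to the median gene, with 123 called on both scales. At an unadjusted p under 0.05 there were 3365, and with no filter on low values 38 genes passed the adjusted p. Of the 129 genes, 104 moved in the same direction on both days, 59 as rises and 45 as falls, and in 102 of these the first day's step was the larger. The other 25 had steps of opposite sign. The difference between the days was larger at the earlier time (ZT4 against ZT28) for 65 genes and at the later time (ZT8 against ZT32) for 64. The count was 59 without ZT4 replicate 1, 59 without ZT4 replicate 2, 62 without ZT8 replicate 1, 50 without ZT8 replicate 2, 69 without ZT28 replicate 1, 57 without ZT28 replicate 2 and 85 without ZT32 replicate 3. Of the 10 largest rises and the 10 largest falls of the step, 3 and 2 were among the 129, which are 0.47% of the genes tested.

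In 2 of the 4 identifiers printed for this difference the step was present on both days and smaller on the second. GLYMA08G45150 was at 17.3, 15.3 and 14.7 FPKM at ZT4 and at 156.4, 189.1 and 180.9 at ZT8, and at 45.6, 47.6 and 46.6 at ZT28 and 158.2, 151.1 and 134.7 at ZT32. The ZT8 and ZT32 libraries overlapped, while all ZT28 libraries lay above all ZT4 libraries. Its rise was 11.1-fold on the first and 3.18-fold on the second day, and the steps differed by -1.75 ± 0.12 (log2, SE, limma adjusted p = 0.000223).

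GLYMA03G42260 was at 210.0, 218.9 and 204.5 FPKM at ZT4 and at 20.3, 20.7 and 25.1 at ZT8, and at 279.8, 272.7 and 252.5 at ZT28 and 58.9, 70.4 and 98.9 at ZT32. The second day's libraries were higher at both times, and in ratio by more at the later time. The mean was 9.58-fold lower after the first and 3.53-fold lower after the second step, and the steps differed by 1.37 ± 0.21 (log2, SE, limma adjusted p = 0.0162). The adjusted p of this difference was 0.056 without ZT4 replicate 2, 0.0521 without ZT8 replicate 1 and 0.0564 without ZT8 replicate 2.

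The other two had a step on the second day alone by the tests of single days. GLYMA08G04880 was at 0.809, 0.593 and 1.00 FPKM at ZT4 and 0.498, 0.572 and 0.829 at ZT8, and at 1.78, 2.16 and 1.47 at ZT28 and 11.1, 9.72 and 11.4 at ZT32. The first day's groups overlapped and the second day's did not. The step was -0.14 ± 0.12 on the first day (limma adjusted p = 0.381) and 2.07 ± 0.11 on the second (adjusted p = 0.000111), a difference of 2.21 ± 0.17 (log2, SE, adjusted p = 0.000256). At the next time point its level was 255 ± 107 FPKM at ZT36 and 3.14 ± 1.31 at ZT12 (SD, n = 3).

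GLYMA07G10400 was at 5.31, 4.99 and 9.29 FPKM at ZT4 and 5.56, 6.002 and 8.19 at ZT8, and at 16.6, 28.0 and 33.7 at ZT28 and 5.82, 6.36 and 7.04 at ZT32. The libraries of ZT8 and ZT32 overlapped, with means of 6.58 ± 1.41 and 6.40 ± 0.613 FPKM (SD, n = 3), while all of ZT28 lay above all of ZT4. The steps were 0.04 ± 0.21 (limma adjusted p = 0.9) and -1.82 ± 0.22 (adjusted p = 0.00169), a difference of -1.86 ± 0.35 (log2, SE, adjusted p = 0.046). This last call did not hold when any 1 of 10 of the 12 libraries was left out, with adjusted p-values up to 0.133.

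**Figure D4:**
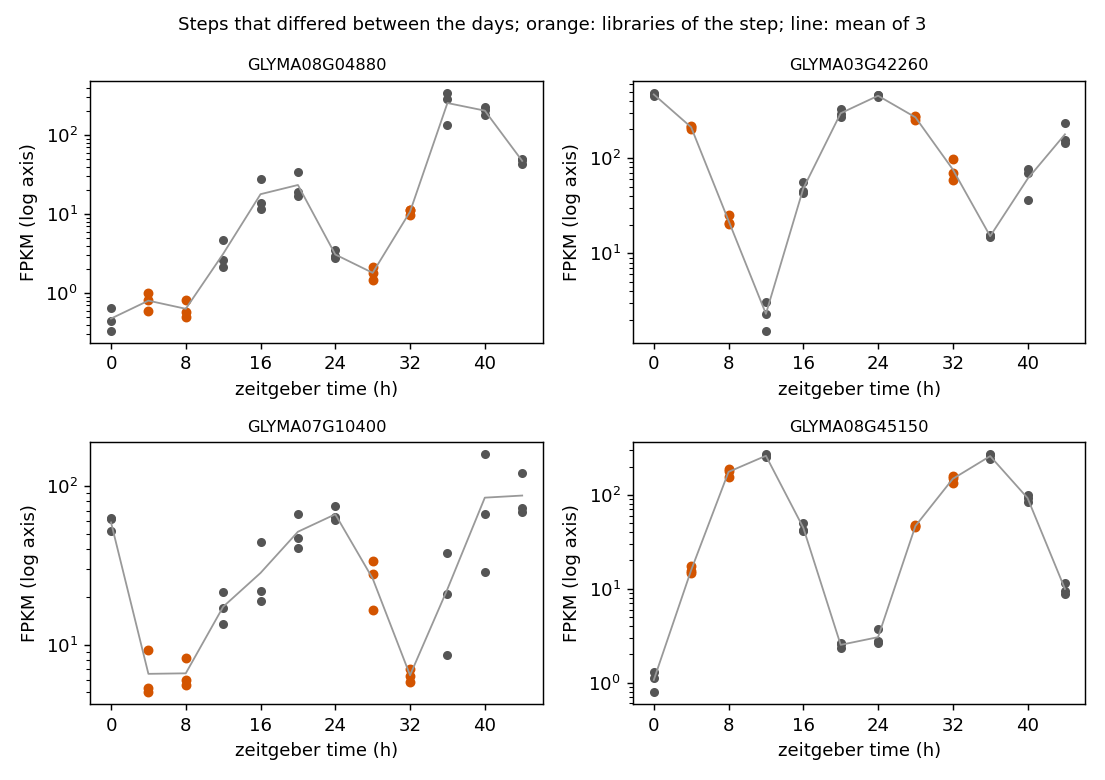
FPKM (log axis) of the 4 identifiers printed for a step that differed between the days, against zeitgeber time in h. Points are the 36 libraries, orange for the 12 of the step, and the line joins the means of 3. GLYMA08G04880 (top left) has means of 0.802 and 0.633 FPKM at ZT4 and ZT8 and of 10.7 at ZT32, and GLYMA07G10400 (bottom left) is already low at ZT4 but not at ZT28.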

How the data were processed

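The authors deposited 1 table of FPKM values for 47011 identifiers in 36 libraries, and each column name matched 1 sample title. Per the submitters' processing notes, HTSeq 0.6.0 and TopHat2 2.1.0 were among the tools, with no role or order stated. How FPKM were computed, the genome build, the annotation and strand handling are not given in the sources used, so near-identical and overlapping genes may share reads. Since FPKM are no counts, count models were not fitted.

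Genes averaging 1 FPKM or more were tested on log2(FPKM + 1) with limma 3.58.1 (R 4.3.3), a prior variance that follows the mean level, and p-values adjusted by Benjamini-Hochberg, called at 0.05. The step was fitted on its 12 libraries with day as covariate, each day on its own 6 libraries, the difference between the days with the 4 time points as groups, and ZT12 against ZT0 on 12 other libraries. The tests were run on simulated data with noise drawn independently for each gene and library. That simulation held no shift of the median gene and no deviation shared by the genes of a library. It therefore cannot check the calls against either. The labels link same-numbered libraries of different times by the number alone.

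Printed identifiers had at least 10 FPKM at the higher time: the 2 largest rises and falls called alike on each day, and the 2 largest positive and negative differences among those called. The rules and lists were chosen with earlier results of these data known. Rescaling, normalization, pseudocount, filters, all 36 libraries, a replicate block and single libraries left out were tried as alternatives. No library was dropped or imputed.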

Additional observations from a re-analysis of the deposited data

Results flagged for a closer look

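The step was measured on 2 days, and a test of the difference between them was passed by 129 genes (limma, adjusted p under 0.05). Among these, GLYMA08G04880 (adjusted p = 0.000256) and GLYMA03G42260 (0.0162) had the more positive step on the second day, and GLYMA07G10400 (0.046) and GLYMA08G45150 (0.000223) the more negative one. The difference was 2.21 for GLYMA08G04880, 1.37 for GLYMA03G42260, -1.86 for GLYMA07G10400 and -1.75 for GLYMA08G45150 on the log2 scale. What accounts for these differences was not tested.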

How the results depend on the processing

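Relative to the median gene there were 5436 rises and 5562 falls, 4659 calls on the second day, 3703 on both days and 248 repeated 2-fold falls, and with quantile normalization 5686, 5272, 4445, 3542 and 214. A pseudocount of 0.1 gave 1205 changes of 2-fold or more and 433 rises and 240 falls repeated at that limit. With no filter on low values 3323 genes were called on both days and 38 for the difference between the days. With a mean of 5 FPKM or more, where fewer genes are tested, 9895 genes were called, 7669 of them rises, and 13506 between ZT0 and ZT12. With a replicate block the second day gave 3790 calls and both days 3239, while the step gave 15189 and the difference 129. Same-numbered libraries had correlated deviations from their group means of -0.16 to 0.30, over 0.1 in 6 of 18 pairs, and 5 of 12 libraries correlated best with their own number, so the numbers were not taken as pairs. With 1 library left out the step gave 14122 to 15179 calls, the first day 9236 to 11331, the second day 3139 to 7659, both days 2734 to 5818, the repeated 2-fold rises 240 to 280 and falls 124 to 159, and the difference 50 to 150. The cause of these shifts was not tested. The identifiers printed kept their sign in 152 of 152 alternatives, and 16 lost the call, all in the differences of GLYMA03G42260 (lowest 1.17, highest 1.54) and GLYMA07G10400, among them those with no filter (adjusted p = 0.0805 and 0.15) and, for GLYMA07G10400, with all 36 libraries in one fit (0.226). The rise of the median gene stayed between 0.156 and 0.168 and the change in the share of the 20 highest genes between -2.63 and -2.14 percentage points with 1 library left out. Absolute depth is unknown, so no value has a counting interval, and levels far below 1 FPKM rest on few reads.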
